A study of Mus musculus with 16 samples.

Results

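The genes described here encode the subunits of the mitochondrial respiratory chain and ATP synthase that are read from nuclear DNA. They were chosen by symbol alone, as every gene whose symbol begins with Nduf followed by a, b, c, s or v, with Uqcr, with Cox4 to Cox8 or with Atp5, plus Sdha, Sdhb, Sdhc and Sdhd. This gave 91 of the 19799 genes in the count table: 36 for complex I, 8 for its assembly, 4 for complex II, 8 for complex III, 19 for complex IV and 16 for complex V. The count for assembly holds Ndufaf1 to Ndufaf7 and Atp5sl, whose product is known from human cells to help build the distal part of complex I despite its name. The count for complex IV holds Ndufa4, now assigned to that complex, its relative Ndufa4l2, and Cox7a2l, which joins complex III to complex IV in supercomplexes. The mitochondrially encoded subunits and Cox6b1 were not analysed here.

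The RNA came from pmi28, a line of mouse myoblasts, the muscle precursor cells that fuse with each other into myotubes. There were 6 groups and 16 libraries. One transgenic line carried msx2 and GFP under a doxycycline-inducible system and gave 3 libraries of induced isolated myotubes, 3 of uninduced isolated myotubes and 2 of uninduced myoblasts. The other line carried inducible GFP only and was sampled in the same numbers. Myoblasts grew in medium with fetal bovine serum. Myotubes formed in medium with horse serum over 3 days, were lifted with Accutase, caught on a mesh, and recultured with AraC, which kills dividing cells, for 3 days. Induced myotubes then received growth medium with 2 µg/ml doxycycline over 24 h, and the medium of the uninduced myotubes is not stated. Each genotype is thus represented by a single line, and myotubes differ from myoblasts in serum, isolation and drug as well as in fusion, which cannot be told apart. Library totals lay between 19784873 and 33092666 counts.

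The respiratory chain passes electrons along the inner mitochondrial membrane and ends at oxygen. Complex I takes electrons from NADH and complex II takes them from succinate as part of the tricarboxylic acid cycle. Complex III passes them to cytochrome c, and complex IV reduces oxygen. The protons pumped on the way drive complex V, the ATP synthase. Skeletal muscle is known for a switch of complex IV isoforms during maturation, in which the muscle forms encoded by Cox6a2, Cox7a1 and Cox8b take the place of the forms from Cox6a1, Cox7a2 and Cox8a that other tissues use. Msx2 is a homeobox transcription factor known to restrain differentiation.

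The libraries matched their labels in Msx2 and in muscle markers. Msx2 stood at 1340 to 1510 CPM (a gene's reads relative to the size of its library) in induced msx2-line myotubes, at 12.1 to 15.9 CPM in uninduced ones and at 16.4 to 16.8 CPM in myoblasts of that line, against 0.803 to 1.59 CPM in the GFP line. The summed level of 8 myotube markers was 12300 to 15200 CPM in induced msx2-line myotubes, 25300 to 29100 CPM in uninduced ones and 982 to 1010 CPM in their myoblasts. GFP-line sums were 28100 to 31700, 29300 to 32400 and 406 to 422 CPM in the same order of groups. Of 3 leukocyte markers, the sum was 9.1 to 9.47 CPM in induced msx2-line myotubes and 2.99 to 3.8 CPM in uninduced ones. Sums of 5 fibroblast markers overlapped between these groups, at 259 to 836 and 244 to 722 CPM. Whether the replicates are separate cultures is not stated, so the p-values reflect the spread of these libraries only, and that spread may be technical. The GFP-line myoblast libraries differed little beyond counting noise, with a chi-square of 1.949 per degree of freedom against 10.5 to 31.26 in the other groups.

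Together the respiratory chain genes took 0.944 to 1.33% of the TMM-adjusted library size of a group, which is not a share of its raw reads. Their summed level was 9980 ± 75.9 CPM in induced msx2-line myotubes, 9560 ± 693 CPM in uninduced ones (SD, n = 3 each) and 13300 ± 57.1 CPM in msx2-line myoblasts (n = 2). The GFP-line sum was 9440 ± 346, 9640 ± 550 and 11500 ± 188 CPM in induced myotubes, uninduced myotubes and myoblasts. Atp5b, for the catalytic beta subunit of ATP synthase, held the largest count of reads in every group, with means of 1260 to 2280 CPM, and Atp5a1, for the alpha subunit, came next at 802 to 1360 CPM. By complex, the genes of complex V summed to 3830 ± 7.52 CPM in induced msx2-line myotubes, 3690 ± 279 CPM in uninduced ones and 5990 ± 80.6 CPM in myoblasts, and those of complex I to 2620 ± 49.8, 2510 ± 154 and 2700 ± 6.94 CPM in the same groups. The assembly genes of complex I and Atp5s, for coupling factor B, stood at means of 5.85 to 41.9 CPM. Cox8c, for a testis isoform, had 4 reads over all 16 libraries, and Ndufa4l2 had 45. Neither passed the filter on low counts, which left 89 genes of the respiratory chain among 16245 tested. Tests were edgeR quasi-likelihood F-tests, two-sided, with p-values adjusted over all 16245 genes and a threshold of 0.05, and changes are log2 fold changes ± SE.

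In both lines the largest differences between myotubes and myoblasts lay in isoforms of complex IV. Cox6a2, for the muscle form of subunit 6a, stood at 131, 98.3 and 86.7 CPM in the 3 libraries of uninduced msx2-line myotubes, against 2.01 and 1.56 CPM in their myoblasts. Cox6a2 in the GFP line was at 134, 107 and 100 CPM in uninduced myotubes, against 0.653 and 0.502 CPM in myoblasts. The groups lay far apart, and the change was 5.88 ± 0.25 in the msx2 line and 7.61 ± 0.30 in the GFP line, both past the threshold. Cox6a1, the form of other tissues, went the other way. It stood at 61.8, 90.3 and 72.7 CPM in uninduced msx2-line myotubes, against 192 and 180 CPM in myoblasts, and fell by 1.31 ± 0.11 on the log2 scale. The fall in the GFP line was 1.27 ± 0.11 on the same scale.

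Cox8b and Cox8a formed the second such pair. Cox8b, for the muscle form of subunit 8, was at 76.9, 75.2 and 44.9 CPM in uninduced msx2-line myotubes, against 0.98 and 1.03 CPM in myoblasts, and at 82.5, 81 and 49.3 CPM in uninduced GFP-line myotubes, against 0.327 and 0.456 CPM in myoblasts. The changes were 6.02 ± 0.44 and 7.48 ± 0.51. Replicate 3 was the lowest library for Cox8b in each of the 2 uninduced myotube groups and in induced GFP-line myotubes. Cox8a stood at 73.5, 97.9 and 78.5 CPM in uninduced msx2-line myotubes, against 199 and 224 CPM in myoblasts, and its changes were -1.34 and -1.18 in the msx2 and GFP lines. Per kilobase of transcript, the muscle forms thus made up 53.9 ± 8.77% of Cox6a2 and Cox6a1 together in uninduced msx2-line myotubes and 0.796 ± 0.103% in their myoblasts. For Cox8b and Cox8a this share was 54 ± 7.44% and 0.722 ± 0.0351% in the same groups. The GFP-line Cox6a2 share was 59.2 ± 3.31% in uninduced myotubes and 0.306 ± 0.0461% in myoblasts, and the Cox8b share was 57.1 ± 7.37% and 0.335 ± 0.0916%.

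**Figure D1:**
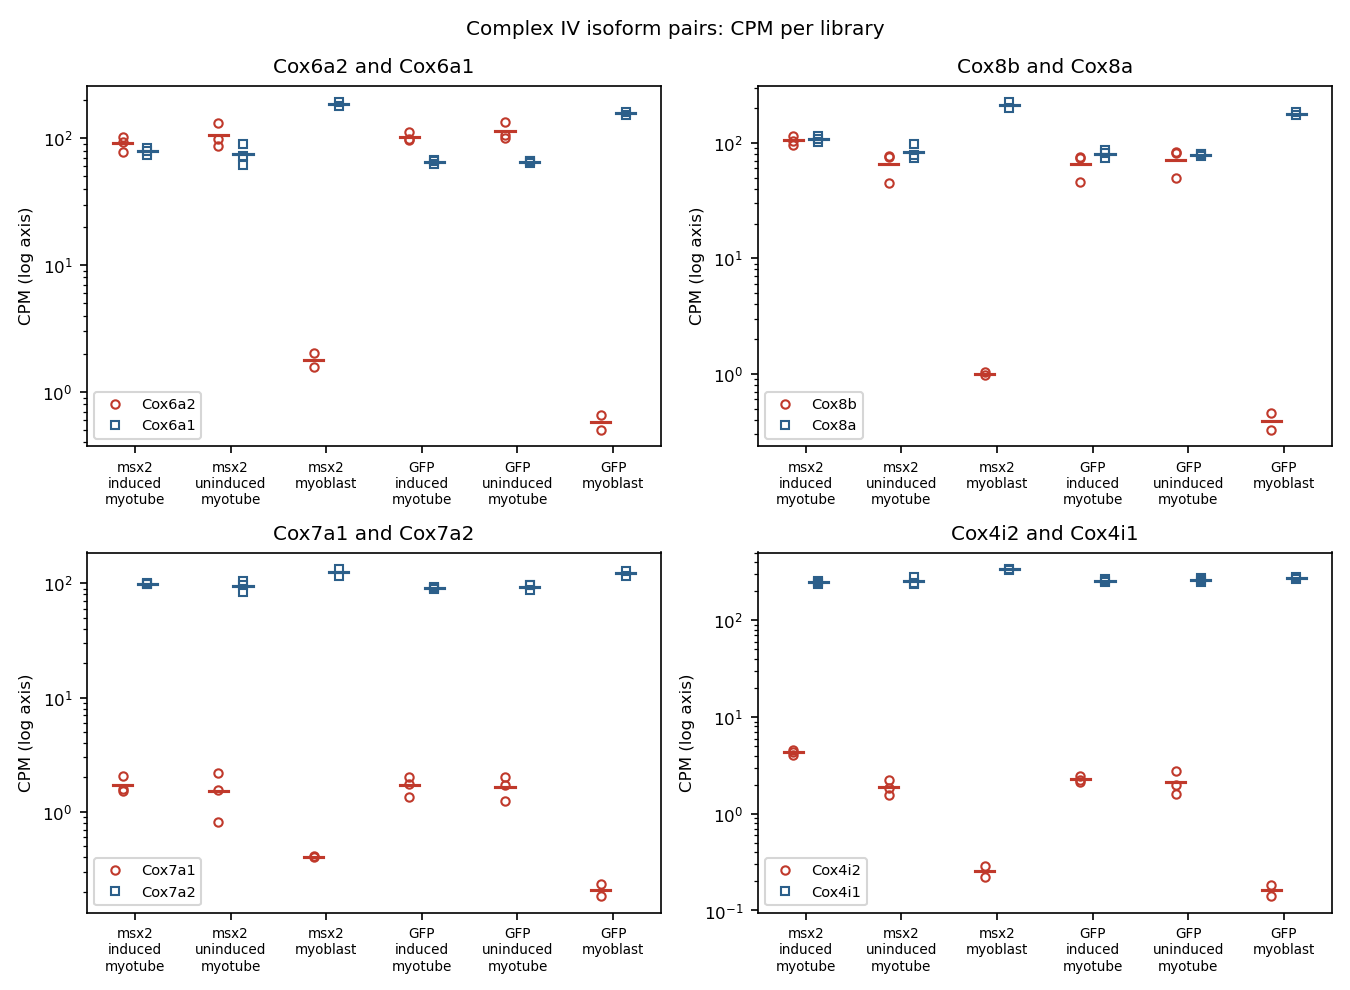
Level in CPM (log axis) of each muscle or tissue isoform of complex IV (red circles) and of the form it stands beside (blue squares) in every library of the 6 groups, with a short line at each group's mean. In myoblasts Cox6a2 sits at 1.56 to 2.01 CPM in the msx2 line and 0.502 to 0.653 CPM in the GFP line, and Cox8b near 1 CPM or below. Both sit near the level of Cox6a1 and Cox8a in myotubes, while Cox7a1 and Cox4i2 stay far below Cox7a2 and Cox4i1 throughout.

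The switch reached 2 pairs and not the third. Cox7a1, for the muscle form of subunit 7a, was at 2.2, 1.56 and 0.81 CPM in uninduced msx2-line myotubes, against 0.401 and 0.411 CPM in myoblasts. It rose by 1.84 in the msx2 line and 2.94 in the GFP line, yet it made up 2.58 ± 1.05% of Cox7a1 and Cox7a2 per kilobase in uninduced msx2-line myotubes and 0.54 ± 0.0418% in myoblasts. Cox7a2 fell by 0.41 and 0.39 in the msx2 and GFP lines, in the msx2 line not past the threshold on the upper-quartile scale (-0.20, adjusted p = 0.0527). Cox4i2, a form of subunit 4 known from lung and from the response to low oxygen, rose by 2.85 and 3.69 but stayed at 1.56 to 2.21 CPM in uninduced msx2-line myotubes, beside 240 to 278 CPM of Cox4i1. The testis form Cox7b2 rose by 2.18 and 1.91, at means of 2.82 CPM in uninduced myotubes of both lines. Cox6b2, another testis form, averaged 0.414 CPM in uninduced msx2-line myotubes and 0.0874 CPM in their myoblasts. Its rise of 2.20 passed with all libraries (adjusted p = 0.0148) and not without msx2-line myoblast replicate 2 (1.58, adjusted p = 0.133). In the GFP line Cox6b2 averaged 0.166 CPM in uninduced myotubes and 0.0689 CPM in myoblasts, and its change of 1.26 did not pass (adjusted p = 0.24).

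The isoform genes have distinct stretches of DNA before their starts. Below are the 250 bases upstream of the RefSeq start of Cox8b and Cox8a, a pair in which the muscle form rose and its partner fell, and of Sdha and Sdhd, the complex II genes that msx2 induction raised most. They come from RefSeq on GRCm38.p6, another build than that of the counts, all genes lie on the minus strand, and they are written 5′ to 3′ toward the start. The windows are chr7:140900447-140900696 for Cox8b, chr19:7217617-7217866 for Cox8a, chr13:74350241-74350490 for Sdha and chr9:50603850-50604099 for Sdhd. Capitals mark matches on either strand to CAGCTG, a form of the E-box read by the MyoD family, TGCGCA, the core of the site of NRF1, and CCGGAA, the core of the site of ETS factors such as GABP.
Cox8b: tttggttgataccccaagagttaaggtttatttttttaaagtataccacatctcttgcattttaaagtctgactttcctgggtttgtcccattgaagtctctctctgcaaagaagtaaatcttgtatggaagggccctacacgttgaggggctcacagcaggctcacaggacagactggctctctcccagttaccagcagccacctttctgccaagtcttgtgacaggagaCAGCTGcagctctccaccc
Cox8a: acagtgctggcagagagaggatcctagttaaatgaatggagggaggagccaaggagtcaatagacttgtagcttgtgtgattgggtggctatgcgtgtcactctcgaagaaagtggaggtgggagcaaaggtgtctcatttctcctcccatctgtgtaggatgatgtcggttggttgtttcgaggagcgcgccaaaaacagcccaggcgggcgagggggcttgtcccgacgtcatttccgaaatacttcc
Sdha: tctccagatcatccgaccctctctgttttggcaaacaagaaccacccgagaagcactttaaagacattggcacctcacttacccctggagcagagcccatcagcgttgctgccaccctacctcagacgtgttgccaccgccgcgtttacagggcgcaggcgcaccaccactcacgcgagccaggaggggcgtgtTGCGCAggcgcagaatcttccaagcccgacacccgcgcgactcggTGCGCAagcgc
Sdhd: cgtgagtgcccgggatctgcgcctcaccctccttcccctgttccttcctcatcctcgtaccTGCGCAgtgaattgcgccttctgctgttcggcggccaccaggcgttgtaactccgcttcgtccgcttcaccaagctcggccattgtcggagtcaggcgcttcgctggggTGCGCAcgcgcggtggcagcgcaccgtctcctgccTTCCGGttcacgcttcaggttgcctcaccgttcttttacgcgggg

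Cox8b held 1 match to the E-box form and none to the NRF1 or ETS core, while Cox8a held none of the motifs. Sdha held 2 matches to the NRF1 core, and Sdhd held 2 to the NRF1 core and 1 to the ETS core. A further motif, the TATA box core TATAAA, was in none of the 4 windows. Windows were on hand for 73 of the 91 genes (79 windows, since some genes have more than 1 start). Of these 79 windows, 19% held the NRF1 core, 26.6% the ETS core, 7.59% the E-box form and 8.86% the TATA box core, beside 6.43, 12.0, 13.0 and 12.4% of 32851 windows of all genes. A match says only that these letters stand there.

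In the main fit, differentiation lowered more of the respiratory chain genes than it raised, with the isoforms above counted in. In the msx2 line 69 of the 89 tested genes passed, 20 higher and 49 lower in uninduced myotubes than in myoblasts, where 79.8% of all genes tested passed, 40.8% higher and 39% lower. For the GFP line 63 passed, 25 higher and 38 lower, where 77.7% of all genes passed, 39.8% higher and 37.9% lower. The median change of the 89 genes was -0.26 and -0.06 in the msx2 and GFP lines, beside 0.08 and 0.06 over all genes. The 2 comparisons share no library. Same-numbered uninduced myotubes of the lines nevertheless deviated together (r 0.37 to 0.49), so the comparisons are not independent. Of the genes lower in the msx2 line, 38 of 49 were also lower in the GFP line, which was all 38 of its falls. Of those higher, 18 of the 20 in the msx2 line were also among the 25 in the GFP line. None passed in opposite directions. The same agreement was not counted over all genes, most of which passed in each line, so it cannot be read as a trait of these genes. Less RNA per cell and fewer cells of a type cannot be told apart in such bulk samples.

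These counts moved with the scale and the filter. The shares of all genes passing under those settings are not given, here or in the counts by complex below. Upper-quartile scaling moved the median of all genes to 0.29 in the msx2 line and 0.20 in the GFP line. It gave 26 genes higher and 32 lower in the msx2 line and 33 higher and 24 lower in the GFP line, where the median of the respiratory chain genes became 0.08, against -0.05 in the msx2 line. A filter at 5 CPM in 3 libraries gave 20 higher and 37 lower, and 31 higher and 24 lower. The falls given next for Cox6a1, Cox8a, Uqcrc1, Atp5b, Sdhb and Sdhd and the rise of Ndufa13 passed on the upper-quartile scale in both lines.

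Most genes of complex V fell. In the msx2 line 13 of its 16 genes were lower in uninduced myotubes (81.2%, beside 39% of all genes) and 1 was higher. In the GFP line 9 were lower (56.2%, beside 37.9% of all genes) and 1 was higher. Upper-quartile scaling gave 9 lower and 3 higher in the msx2 line, and 6 lower and 2 higher in the GFP line. Atp5b was at 1310, 1430 and 1220 CPM in uninduced msx2-line myotubes, against 2310 and 2250 CPM in myoblasts, a change of -0.79. GFP-line levels of Atp5b were 1320, 1340 and 1210 CPM in uninduced myotubes, against 1900 and 1890 CPM in myoblasts, with a change of -0.56. The groups did not overlap in either line. Of the 5 genes of the F1 part, which makes ATP, all 5 fell in the msx2 line and 4 in the GFP line. On the upper-quartile scale Atp5e no longer passed in the msx2 line (-0.09, adjusted p = 0.376) nor Atp5d in the GFP line (-0.13, adjusted p = 0.151). The msx2-line call of Atp5e was also lost without msx2-line myoblast replicate 2 (-0.19, adjusted p = 0.104). The 3 genes for subunit c, Atp5g1, Atp5g2 and Atp5g3, encode the same mature protein of the rotor ring. All 3 fell in both lines, by 0.63, 0.89 and 0.91 in the msx2 line and by 0.31, 0.54 and 0.68 in the GFP line, where Atp5g1 did not pass on the upper-quartile scale (-0.17, adjusted p = 0.0892) or with the filter at 5 CPM (-0.15, adjusted p = 0.109). Atp5o, for the stalk protein that joins F1 to the membrane part, changed by -1.01 and -0.62, though its exons overlap those of Donson on the same strand. Among the 7 stalk and membrane genes 5 fell in the msx2 line and 2 in the GFP line, and Atp5j, which did not pass in either and whose exons overlap those of Gabpa on the other strand, had 98.2 CPM in uninduced msx2-line myotubes and 98.1 CPM in myoblasts. Of the 5 stalk and membrane genes lower in the msx2 line, on the upper-quartile scale Atp5f1 (0.03) and Atp5l (0.01) changed sign and Atp5h (-0.19, adjusted p = 0.0532) lost its call. Atp5s was the 1 gene that rose, by 0.78 and 0.68, and its msx2-line call was lost under the replicate block with GC correction.

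Complex II and the core of complex III were lower as well. All 4 succinate dehydrogenase genes passed as lower in both lines, where 39% (msx2) and 37.9% (GFP) of all genes were lower. Sdhd, for a membrane anchor that binds the quinone, was at 109, 115 and 97.1 CPM in uninduced msx2-line myotubes, against 202 and 201 CPM in myoblasts, and changed by -0.91 there and by -0.67 in the GFP line. Sdhb, for the iron-sulfur subunit, changed by -0.73 and -0.39, and Sdha, for the flavoprotein that oxidizes succinate, by -0.41 and -0.31. Sdhc, for the other anchor, changed by -0.56 in the msx2 line and by -0.16 in the GFP line (adjusted p = 0.0368), where the call was lost without GFP-line myoblast replicate 1 (-0.13, adjusted p = 0.172), myoblast replicate 2 (-0.19, adjusted p = 0.0578) or uninduced myotube replicate 3 (-0.12, adjusted p = 0.12). On the upper-quartile scale Sdha no longer passed in the GFP line (-0.16, adjusted p = 0.0631) and Sdhc had a change of -0.01 (adjusted p = 0.907).

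In complex III 4 of 8 genes (50%) fell in each line, not far from the 39% (msx2) and 37.9% (GFP) of all genes. On the upper-quartile scale 3 fell in the msx2 line and 2 in the GFP line. The GFP-line calls lost there were those of Uqcrfs1 (-0.14, adjusted p = 0.186) and of Uqcrc2 (-0.03, adjusted p = 0.73), for the other core protein, which stood at -0.18 (adjusted p = 0.0482) and was lost with DESeq2 as well (adjusted p = 0.0591). Uqcrc1, for a core protein, was at 143, 160 and 131 CPM in uninduced msx2-line myotubes, against 319 and 312 CPM in myoblasts, a change of -1.12, and changed by -0.89 in the GFP line. Uqcrh, for the hinge protein beside cytochrome c1, changed by -0.86 and -0.64, and Uqcrfs1, for the Rieske iron-sulfur protein, by -0.54 and -0.29. Of the small subunits, Uqcrb, Uqcrq, Uqcr10 and Uqcr11 had changes of -0.17 to -0.01 in the msx2 line, none past the threshold. In the GFP line Uqcr11 was 0.30 and Uqcrq 0.24 higher, calls that were lost without GFP-line myoblast replicate 2 (0.24, adjusted p = 0.129 for Uqcr11 and 0.23, adjusted p = 0.0686 for Uqcrq), for Uqcr11 also without uninduced replicate 1 (0.0798) and for Uqcrq without myoblast replicate 1 (0.0591).

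Complex I was divided, as were all genes. In the msx2 line 10 of its 36 genes were higher (27.8%) and 15 lower (41.7%) in uninduced myotubes, beside 40.8% and 39% of all genes. In the GFP line 14 were higher (38.9%) and 11 lower (30.6%), beside 39.8% and 37.9%. On the upper-quartile scale the counts were 13 and 9, and 18 and 6. Ndufa13, for an accessory subunit at the junction of the arms, was at 109, 106 and 96.4 CPM in uninduced msx2-line myotubes, against 60.2 and 69 CPM in myoblasts, and rose by 0.68 there and 0.99 in the GFP line. Its exons overlap those of Tssk6, and the strand setting of the counting is not given in the sources used here. Ndufs4, for an accessory subunit of the NADH-binding end that is lost in a form of Leigh syndrome, rose by 0.47 and 0.77, the first of which was 0.09 under the replicate block with GC correction (adjusted p = 0.312), and Ndufv3, at the same end, rose by 0.56 and 0.54. Ndufa1, for a subunit of the membrane arm, rose by 0.54 in both lines. In the other direction Ndufb8, for a membrane-arm subunit, was at 79.2, 81.8 and 75.4 CPM in uninduced msx2-line myotubes, against 138 and 152 CPM in myoblasts, and changed by -0.88 and -0.58. Ndufc2 changed by -0.71 and -0.58, Ndufb6 by -0.59 and -0.48 and Ndufa9 by -0.59 and -0.34, the last not past the threshold on the upper-quartile scale (-0.19, adjusted p = 0.0739). Rises and falls therefore stood side by side in the membrane arm.

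Among the 8 assembly genes of complex I, 2 rose and 5 fell in the msx2 line and 2 rose and 4 fell in the GFP line. The falls were 62.5% and 50% of them, beside 39% and 37.9% of all genes. Ndufaf7, for a methyltransferase of complex I assembly, rose by 0.55 and 0.83 and Ndufaf1 by 0.42 and 0.39. Atp5sl changed by -1.20 and -0.76, Ndufaf5 by -0.91 and -0.76 and Ndufaf2 by -0.88 and -0.91. In complex IV, beside the isoforms, Cox7c changed by -0.82 and -0.52, and Cox7a2l rose by 0.24 and 0.34. The msx2-line call of Cox7a2l was lost under the replicate block with a correction for transcript length. Cox4i1 fell by 0.41 in the msx2 line and had a change of -0.06 in the GFP line (adjusted p = 0.416).

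**Figure D2:**
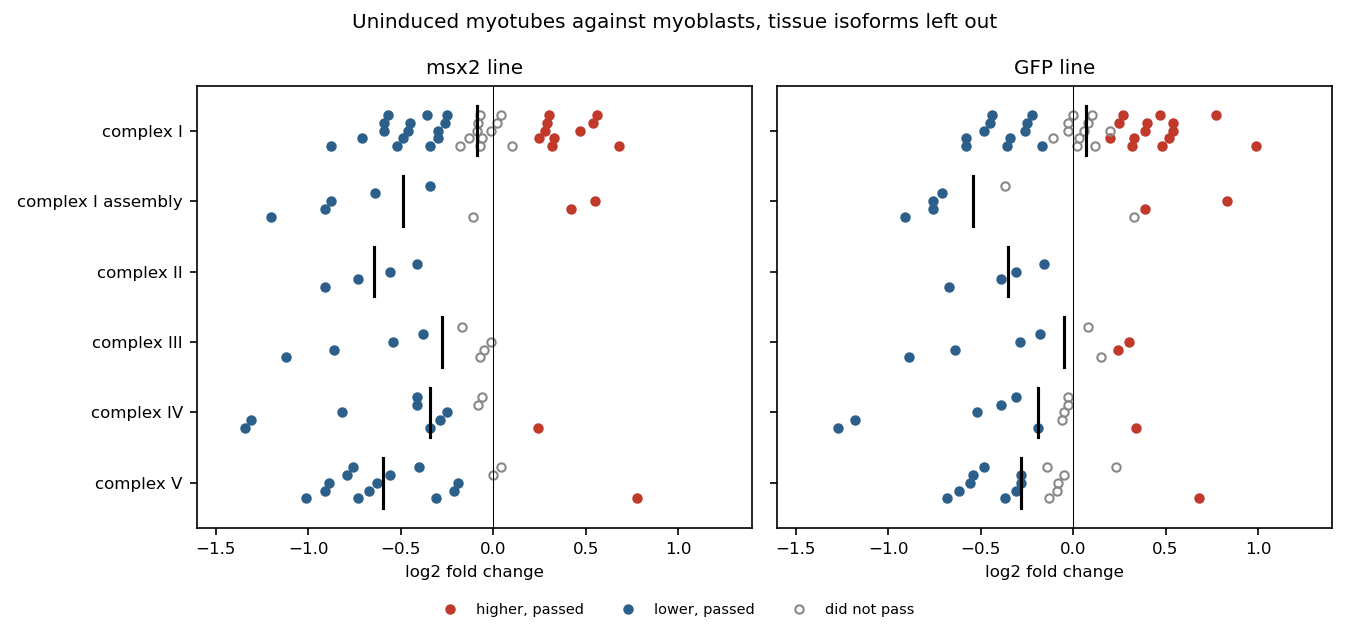
Log2 fold change of uninduced myotubes over myoblasts in the msx2 line and the GFP line for each tested gene, by complex, without the 6 tested tissue isoforms of complex IV (83 genes shown). Red and blue points passed as higher and lower, open grey points did not pass, and the black bar is the median. Complexes II and V lie mostly below 0, while complex I spreads to both sides.

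The size of the differentiation change was set between the lines by a test of the difference. For 5 genes the msx2-line change was below the GFP-line change, and 4 of them are described: Cox6a2 by -1.73 ± 0.48 (adjusted p = 0.0399), Sdhc by -0.41 ± 0.09 (0.012), Atp5d, for the delta subunit of the F1 part, by -0.39 ± 0.11 (0.0389) and Cox4i1 by -0.34 ± 0.10 (0.0439). Over all genes 8.28% passed this test, 4.01% higher and 4.27% lower. The median over the 89 genes was -0.22, beside -0.07 over all genes. Cox4i1 stood at 243, 278 and 240 CPM in uninduced msx2-line myotubes, against 341 and 332 CPM in myoblasts, and at 275, 263 and 250 CPM in uninduced GFP-line myotubes, against 278 and 270 CPM in myoblasts. The uninduced myotubes of the lines overlapped, and the myoblasts of the lines did not. Without msx2-line myoblast replicate 1 none of the 5 passed, with adjusted p-values of 0.193 for Cox4i1, 0.209 for Cox6a2, 0.169 for Atp5d and 0.086 for Sdhc. None passed without GFP-line myoblast replicate 2 either. Exons of Cox6a2 and Cox4i1 overlap other genes, Itgad and Emc8.

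Induction of msx2 in formed myotubes changed fewer of these genes, and most of them slightly. Of the 89 genes 11 were higher and 3 lower in induced than in uninduced msx2-line myotubes, 15.7% in all, beside 32.5% of all genes tested, of which 16.2% were higher and 16.3% lower. The median change was 0.06, beside -0.01 over all genes. Without uninduced msx2-line replicate 3, which lay lowest in these genes, 7 were higher and 6 lower and the median was -0.01. The replicate block with a correction for GC content gave 19 higher and 11 lower. The shares of all genes in these fits are not given here, so their counts cannot be set against the 32.5% of the main fit. Of 4 genes of complex II 3 rose, as did 3 of 36 of complex I, 1 of 8 of complex III, 3 of 17 of complex IV and 1 of 8 assembly genes. No gene of complex V passed, although their means ran up to 1350 CPM. The falls were 1 gene of complex I and 2 assembly genes. With the replicate number as a block 18 genes passed, with Sdhb, Uqcrb, Ndufv1 and Ndufs7 added.

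In complex II, Sdha was at 269, 244 and 249 CPM in induced msx2-line myotubes, against 215, 203 and 187 CPM in uninduced ones. Its groups did not overlap, and it rose by 0.33 ± 0.07 (adjusted p = 0.00209). Sdhd was at 137, 143 and 129 CPM in induced msx2-line myotubes, against 109, 115 and 97.1 CPM in uninduced ones, and rose by 0.35 ± 0.07 (adjusted p = 0.00116). Every induced library again lay above every uninduced one. Sdhc stood at 116, 108 and 113 CPM in induced myotubes, against 104, 102 and 93.8 CPM in uninduced ones. It rose by 0.17 ± 0.06 (adjusted p = 0.0314), a call lost without uninduced replicate 3 (0.13, adjusted p = 0.142), induced replicate 1 (adjusted p = 0.0971) or induced replicate 3 (0.0717). Sdhb stood at 129, 122 and 128 CPM in induced myotubes, against 114, 117 and 107 CPM in uninduced ones. Its change of 0.16 ± 0.06 missed the threshold (adjusted p = 0.0712) and passed with the replicate block (adjusted p = 0.0235). The summed level of the 4 genes was 629 CPM in induced msx2-line myotubes, 521 CPM in uninduced ones and 804 CPM in msx2-line myoblasts.

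In complex I, Ndufb10, for an accessory subunit of the membrane arm, was at 63, 65.7 and 67.3 CPM in induced msx2-line myotubes, against 46.6, 52 and 47.3 CPM in uninduced ones. It rose by 0.43 ± 0.06 (adjusted p = 2.26e-05), the smallest adjusted p among these genes. Ndufa8, another accessory subunit, rose by 0.23 ± 0.06 (adjusted p = 0.0103), and did not pass without uninduced replicate 3 (0.17, adjusted p = 0.0581). Ndufs3, for a subunit of the quinone-binding part whose exons overlap those of Kbtbd4, rose by 0.18 ± 0.06 (adjusted p = 0.0284), likewise lost without uninduced replicate 3 (0.16, adjusted p = 0.1), induced replicate 1 (0.0653) or induced replicate 3 (0.12). Ndufs4 was at 55.1, 53.3 and 59.3 CPM in induced msx2-line myotubes, against 68, 63.9 and 61.9 CPM in uninduced ones, and fell by 0.21 ± 0.08 on the log2 scale (adjusted p = 0.0483). That call was lost on leaving out any of 12 libraries in turn, with adjusted p-values of 0.0505 to 0.152, the last without uninduced replicate 1. Of the assembly genes, Ndufaf3 fell by 0.49 ± 0.14 (adjusted p = 0.0133) and Ndufaf7 by 0.30 ± 0.07 (adjusted p = 0.00513), and Atp5sl rose by 0.35 ± 0.10 (adjusted p = 0.0134). Ndufaf3 had 5.54, 6.1 and 6.62 CPM in induced msx2-line myotubes, against 8.68, 9.31 and 7.72 CPM in uninduced ones, shares exon sequence with Impdh2, and missed the threshold without uninduced replicate 2 (adjusted p = 0.052) or induced replicate 1 (adjusted p = 0.0601). Atp5sl missed it without induced replicate 2 (0.28, adjusted p = 0.0637).

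In complex III, Uqcrc1 was at 170, 181 and 176 CPM in induced msx2-line myotubes, against 143, 160 and 131 CPM in uninduced ones, and rose by 0.28 ± 0.07 (adjusted p = 0.00599). Uqcrh overlapped between the groups, at 400 to 454 CPM in induced and 411 to 509 CPM in uninduced myotubes. In complex IV, Cox8a was at 102, 107 and 115 CPM in induced msx2-line myotubes, against 73.5, 97.9 and 78.5 CPM in uninduced ones, and rose by 0.38 ± 0.09 (adjusted p = 0.00505). Cox8b was at 115, 96.4 and 103 CPM in induced myotubes, against 76.9, 75.2 and 44.9 CPM in uninduced ones. It rose by 0.68 ± 0.24 (adjusted p = 0.0462), a call lost on leaving out any of 11 libraries in turn, with adjusted p-values of 0.0509 to 0.154, the last without uninduced replicate 3 and at a change of 0.46. Both partners of this pair were therefore higher, and the Cox8b share was 59.6 ± 3.06% in induced and 54 ± 7.44% in uninduced myotubes, within the spread. Cox6a2 had 94.2, 78.6 and 102 CPM in induced msx2-line myotubes, against 131, 98.3 and 86.7 CPM in uninduced ones, which overlap, with a change of -0.20 that did not pass. Cox4i2 had 4.52, 4.06 and 4.38 CPM in induced myotubes, against 1.85, 1.56 and 2.21 CPM in uninduced ones. Its rise of 1.20 ± 0.18 (adjusted p = 9.69e-05) was the largest of the set, on few reads, and its share of Cox4i1 and Cox4i2 was 1.78 ± 0.148% in induced and 0.767 ± 0.182% in uninduced myotubes. Under the replicate block with a correction for GC content, the calls of Uqcrc1 (0.11, adjusted p = 0.08), Ndufa8 (0.071), Ndufs3 (0.218), Ndufs4 (0.37) and Atp5sl (0.0519) were lost. RLE scaling ended those of Sdhc (adjusted p = 0.0543) and Cox8b (0.0527), and a fit of the compared groups alone those of Sdhc, Ndufa8, Ndufs3, Ndufs4, Ndufaf7 and Atp5sl (0.0523 to 0.122).

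**Figure D3:**
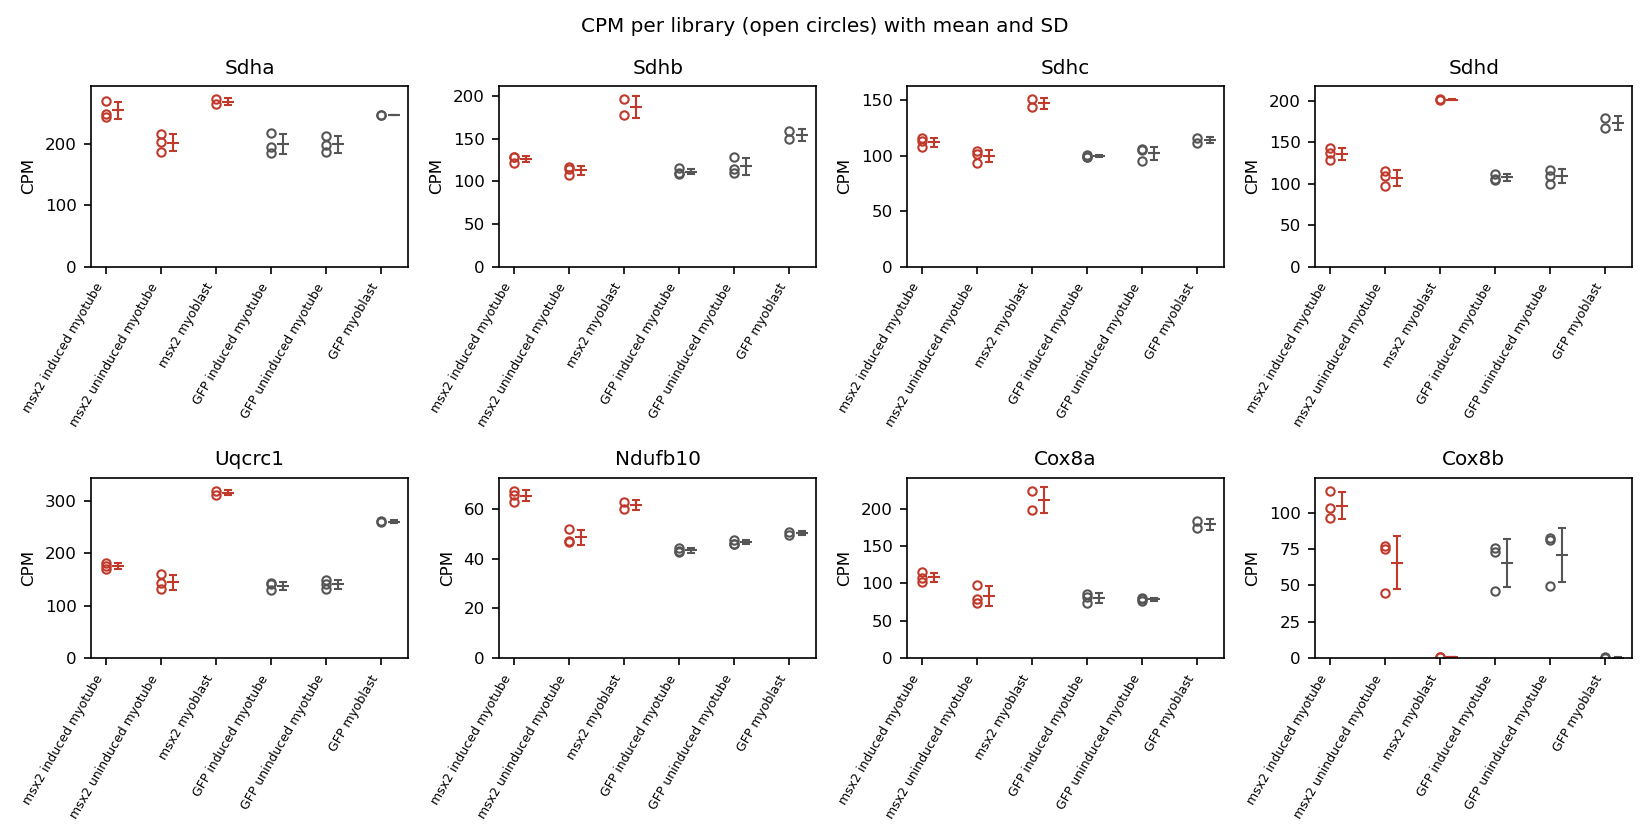
Level in CPM of the 4 complex II genes and of Uqcrc1, Ndufb10, Cox8a and Cox8b in each library of the 6 groups, with mean and SD, msx2 line in red and GFP line in grey. Induced msx2-line myotubes lie above uninduced ones in all 8 panels, and the 2 myotube groups of the GFP line overlap in all panels but that of Ndufb10, where induced ones lie lower. All the genes but Sdhb passed as higher with msx2 induction and were picked for it, so the msx2-line separation is no further result.

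The GFP line received the same doxycycline and medium. There no respiratory chain gene passed by edgeR's quasi-likelihood test, none had an unadjusted p under 0.05, and DESeq2 also called 0. The median change was -0.03, and 0.0308% of all genes tested passed, all of them higher. The induction changes of the 2 lines were then tested against each other, where 17.9% of all genes passed, 9.15% higher in the msx2 line and 8.78% lower. Of the 89 genes 5 passed, all higher: Ndufb10 by 0.53 ± 0.08 (adjusted p = 0.000223), Cox4i2 by 1.11 ± 0.27 (0.008), Sdhd by 0.37 ± 0.10 (0.0165), Sdha by 0.33 ± 0.10 (0.0332) and Uqcrc1 by 0.31 ± 0.10 (0.0414). For Uqcrc1 the difference was 0.14 (adjusted p = 0.134) under the replicate block with GC correction, and it did not pass with RLE scaling (0.0567), upper-quartile scaling (0.0685) or the compared groups alone (0.0726). Sdha did not pass with the compared groups alone either (0.34, adjusted p = 0.0618). Sdhd in the GFP line was at 106, 112 and 105 CPM in induced myotubes, against 117, 110 and 100 CPM in uninduced ones. Ndufb10 was at 44.5, 42.7 and 43 CPM in induced GFP-line myotubes, against 47.5, 46.1 and 46.1 CPM in uninduced ones, lower in every library, with a change of -0.10 that did not pass. On leaving out 1 library the difference was lost for Sdha in 7 cases (adjusted p = 0.0501 to 0.0893) and for Uqcrc1 in 12 (0.0501 to 0.108), among them both without uninduced msx2-line replicate 3 (0.28 for Sdha and 0.25 for Uqcrc1). With the replicate block 9 genes passed, the added ones being Cox8a (adjusted p = 0.0302), Cox8b (0.0065), Sdhc (0.0466) and Sdhb (0.0329).

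**Figure D4:**
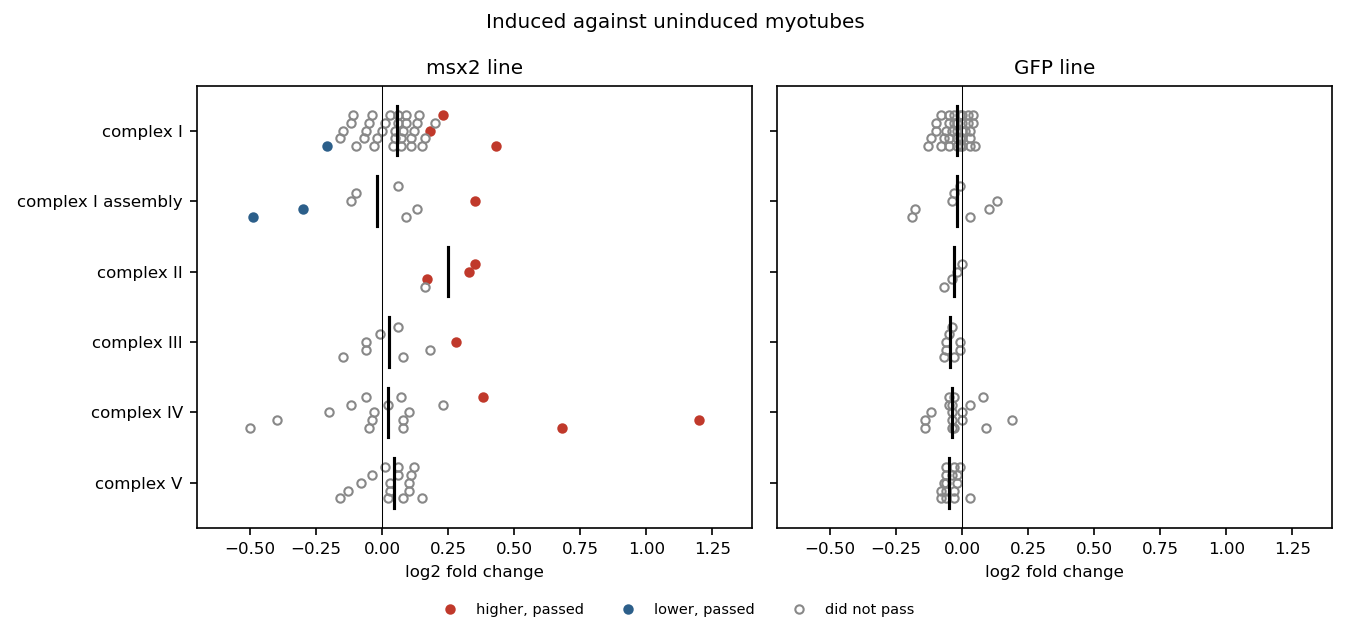
Log2 fold change of induced over uninduced myotubes in the msx2 line and the GFP line for each of the 89 tested genes, by complex, with red and blue points for genes that passed as higher and lower, open grey points for the rest and a black bar at the median. In the msx2 line 11 genes passed as higher and 3 as lower, none of them of complex V, and in the GFP line none passed.

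Changes with msx2 induction could be set beside those of differentiation in the GFP line. They share no library, but same-numbered myotube libraries of the lines deviated together, so they are not independent. Replicate 3 of the uninduced myotubes lay low in these genes in both lines, with median log2 deviations of -0.18 (msx2) and -0.14 (GFP). Of the 11 genes that rose, 7 were lower and 3 were higher in GFP-line myotubes than in their myoblasts, and 1 did not pass. Among all 89 genes 38 were lower and 25 higher there, and over all genes tested 37.9% were lower and 39.8% higher. How all genes that rose with msx2 induction divided there was not counted. Of the 3 that fell, 2 were higher and 1 did not pass. Cox8b, Cox4i2 and Ndufs3 were the 3 genes higher in both. Mean CPM in induced msx2-line myotubes over msx2-line myoblasts was 51.3 for Cox6a2 and 104 for Cox8b, against 0.426 for Cox6a1 and 0.512 for Cox8a. It was 0.945 for Sdha, 0.679 for Sdhd, 0.557 for Uqcrc1 and 0.594 for Atp5b. The summed myotube markers given above were lower in induced than in uninduced msx2-line myotubes. Ckm and Tnnt3 overlapped, at 328 to 520 and 1430 to 1790 CPM in induced and 296 to 393 and 1590 to 2020 CPM in uninduced ones. The rest of these markers lay lower in every induced library. Of the 3 leukocyte markers, Csf1r was at 5.51 to 6.4 CPM in induced and 0.499 to 0.841 CPM in uninduced msx2-line myotubes, Cd68 at 1.65 to 2.17 and 0.749 to 1.56 CPM, and Ptprc at 1.17 to 1.65 and 1.42 to 1.75 CPM. Their part in these changes was not tested.

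The lines were also compared at each stage. In induced myotubes 21 of the 89 genes differed, 16 higher and 5 lower in the msx2 line, beside 35.3% of all genes, 17.6% higher and 17.8% lower. All 4 genes of complex II were higher, Sdha by 0.35, Sdhd by 0.35, Sdhb by 0.18 and Sdhc by 0.17, and 7 of 36 of complex I, led by Ndufb10 at 0.59, Ndufa11 at 0.34 and Ndufa8 at 0.33. Cox4i2 was 0.92, Cox8b 0.69, Cox8a 0.43 and Uqcrc1 0.35 higher. Ndufs4 (-0.34), Ndufaf7 (-0.34), Ndufaf3 (-0.44), Ndufaf4 (-0.27) and Atp5e (-0.22) were lower. Without induced msx2-line replicate 1 the calls were lost for Sdhb (adjusted p = 0.0963), Sdhc (0.0834), Cox8b (0.111), Ndufaf3 (0.0949) and Atp5e (0.127), and Ndufaf4 lost its call without induced msx2-line replicate 3 (0.11). Sdhb and Sdhc also lost their calls with DESeq2, with RLE scaling and without induced GFP-line replicate 1, 2 or 3. RLE scaling ended the call of Cox8b as well. Under the replicate block with GC correction Sdhb, Ndufa11 and Ndufaf4 did not pass. With the replicate block 24 genes passed, the added ones being Atp5l (adjusted p = 0.0417), Uqcrfs1 (0.0292) and Ndufa10 (0.0419). This comparison shares its libraries with both inductions and is no separate support for them. In uninduced myotubes none of the 89 genes passed, 3 had an unadjusted p under 0.05, DESeq2 called 0, and 0.0616% of all genes passed, 0.00616% higher and 0.0554% lower.

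In myoblasts 19 genes differed between the lines, 17 higher and 2 lower in the msx2 line, beside 16.3% of all genes, 9.09% higher and 7.24% lower. The median was 0.19, beside 0.08 over all genes. Cox6a2 was 1.62 ± 0.45 higher, at 2.01 and 1.56 CPM in msx2-line and 0.653 and 0.502 CPM in GFP-line myoblasts. Ndufb11 (0.43), Sdhc (0.37), Uqcrq (0.37), Atp5d (0.35) and Cox4i1 (0.29) were among the other genes higher, and Ndufaf4 (-0.48) and Ndufs1 (-0.23) were lower. The result rests on 2 libraries a line. Without msx2-line myoblast replicate 1 a single gene passed, Sdhc, at 0.33 (adjusted p = 0.0435), and upper-quartile scaling left 10. Myotube markers were also higher in msx2-line myoblasts, at 982 to 1010 CPM against 406 to 422 CPM, and their part in these differences was not tested.

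Other genes of mitochondrial respiration were counted from lists, to be read beside the 16.2% of all genes that rose and the 16.3% that fell with msx2 induction. Of 20 genes of mitochondrial content 4 rose and 2 fell (30%). Mfn2, for a protein that fuses mitochondria, rose by 0.38 and Vdac1, for the main outer-membrane channel, by 0.33, while Vdac3 fell by 0.35 and the chaperone gene Hspa9 by 0.22. Of 17 genes of the tricarboxylic acid cycle and pyruvate dehydrogenase 3 rose and 2 fell (29.4%). Ogdh, for a subunit of oxoglutarate dehydrogenase, averaged 194 ± 13.5 CPM in induced and 154 ± 9.13 CPM in uninduced msx2-line myotubes, and Cs, for citrate synthase, 233 ± 8.44 and 284 ± 4.71 CPM (SD, n = 3 each). Ogdh rose by 0.33 and Cs fell by 0.29, so that Cs and the Sdh genes of the same cycle moved apart. Of 18 electron carrier genes 3 rose, among them Coq10a (0.39), and 4 fell, among them Gpd2 (-0.68), for the glycerol-3-phosphate dehydrogenase of the inner membrane (38.9% in all). These shares lay on both sides of the 32.5% of all genes.

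Of 32 assembly factors outside the symbol rule 7 rose and 5 fell with msx2 induction, 37.5% beside 32.5% of all genes. Cox15, for an enzyme of heme A synthesis, rose by 0.27 and Foxred1, for a complex I factor, by 0.34, while Uqcc, for a complex III factor, averaged 56.8 ± 1.94 CPM in induced and 82.8 ± 6.79 CPM in uninduced msx2-line myotubes and fell by 0.54. Of 73 genes of the mitochondrial ribosome 4 rose, among them Mrpl51 and Mrps23, and 9 fell, among them Mrpl3 and Mrpl50, 17.8% in all. Of 16 regulators 5 rose and 2 fell, 43.8% in all. Ppargc1a, for a coactivator of mitochondrial genes, averaged 7.65 ± 1.68 CPM in induced and 3.4 ± 0.249 CPM in uninduced msx2-line myotubes and rose by 1.17 ± 0.21 (adjusted p = 0.00039). Esrra, for a nuclear receptor that works with it, rose by 0.57 (adjusted p = 3.34e-05) and Ppard by 0.70, while Ppargc1b fell by 0.35 and Esrrg by 0.68. Nrf1, Gabpa and Tfam had changes of 0.00, -0.01 and -0.03, none past the threshold.

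Differentiation in the GFP line raised 39.8% and lowered 37.9% of all genes. There 60 of the 73 mitochondrial ribosome genes were lower in uninduced myotubes than in myoblasts and 3 higher, and in the msx2 line, where 40.8% of all genes rose and 39% fell, 64 were lower and 4 higher. Of the 20 content genes 16 fell and 1 rose in the GFP line, with Hspd1 and Hspe1, for the paired chaperonins of the matrix, both at -1.92 and Mfn2 at 0.38. Of 17 genes of the cycle 9 fell and 5 rose, with Suclg2 at -1.08 and Mdh2 at -0.76 against Pdhx at 0.73 and Sucla2 at 0.71. Of 32 assembly factors 16 were higher and 8 lower, led by Uqcc at 1.55 and Lyrm7 at 1.42, with Acn9 at -0.94 and Cox10 at -0.91. Electron carriers divided into 6 higher and 9 lower. Adck3, for a kinase-like protein of coenzyme Q synthesis, was at 152 ± 34.6 CPM in uninduced GFP-line myotubes and 1.75 CPM in myoblasts, with a change of 6.43, Coq10a changed by 2.36, and Gpd2 and Cycs, for cytochrome c, by -2.03 and -0.84. Among 16 regulators 7 rose and 7 fell, 43.8% each way. Esrrg (3.33), Ppargc1a (2.11) and Ppargc1b (1.72) rose, and Pprc1 (-1.19), Tfam (-0.38) and Gabpa (-0.34) fell. Nrf1 fell as well, with 26.3 ± 1.64 CPM in uninduced GFP-line myotubes and 52.8 CPM in myoblasts. Gabpa alone of these went the other way in the msx2 line, where it rose by 0.34, and the difference between the lines was 0.68 (adjusted p = 0.000756). Exons of Gabpa overlap those of Atp5j on the other strand.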

How the data were processed

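The deposited values are counts, whole numbers of reads per gene in 19866 rows. What tool and annotation the authors counted with, and whether by strand, is not given in the sources used here. Per the submitters' processing notes, TopHat2 2.0.11, SAMtools 0.1.19, edgeR 3.6.8 and build mm9 were named, without roles. Per the labels' protocols, libraries were stranded mRNA libraries made with PCR, so reads are not independent molecules. The 67 rows with no symbol, which held 0.0601 to 0.0878% of counts, stayed out, and 0 columns of other samples were present.

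All 16 libraries entered a single model of edgeR 4.0.16 (with limma 3.58.1, R 4.3.3), with a coefficient for each group, filterByExpr (minimum count 10), TMM scaling and two-sided quasi-likelihood F-tests in the robust form. Benjamini-Hochberg adjustment ran over 16245 genes in each of 9 comparisons, with a threshold of 0.05. CPM use TMM-adjusted library sizes. SE is the unshrunk log2 fold change over the square root of F. The steps were tested on simulated data. Exon overlaps, transcript lengths and GC content came from GENCODE on GRCm38, another build than mm9, matched by symbol.

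Same-numbered myotube libraries deviated together in all 18 pairs (r 0.17 to 0.77), which is taken as pairing from the data, since the labels give only the number. Myotubes with myoblasts (16 pairs, -0.13 to 0.17) and myoblasts (2 pairs, r 0.1) were not paired. Between myotube groups the blocked fit is given where it changed a call. Named genes were the isoforms of complex IV, every gene passing in an induction or in the difference of inductions, up to 3 each way per complex with at least 2 CPM in the other comparisons, and up to 2 each way per list. A few others are named for contrast (Atp5j, Uqcrh, the small complex III subunits) after their values were seen. The genes and the 8 lists, of which the mitochondrially encoded one had no gene here, were chosen with earlier results of these data known. The settings varied were the scaling (RLE, upper quartile), the filter (none, 5 CPM in 3 libraries), the replicate block with and without GC or length offsets, the compared groups only, DESeq2 1.42.0 and leaving out each library. A gene that the rule names is not reported here, and no other took its place.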

Additional observations from a re-analysis of the deposited data

Results flagged for a closer look

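For the 9 results given here the effect differed between the 2 lines by a test of the difference itself (edgeR quasi-likelihood, adjusted over all genes). With induction the change in the msx2 line exceeded that in the GFP line for Ndufb10 by 0.53 (adjusted p = 0.000223), Cox4i2 by 1.11 (0.008), Sdhd by 0.37 (0.0165), Sdha by 0.33 (0.0332) and Uqcrc1 by 0.31 (0.0414), on the log2 scale. Those of Ndufb10 and Sdhd passed under every alternative run. That of Cox4i2 passed under every alternative that tested it, since the filter at 5 CPM in 3 libraries dropped the gene. With differentiation the msx2-line change was below the GFP-line change, with differences of -1.73 for Cox6a2 (adjusted p = 0.0399), -0.41 for Sdhc (0.012), -0.39 for Atp5d (0.0389) and -0.34 for Cox4i1 (0.0439). The GFP-line myoblasts in this comparison are 2 libraries that differed little beyond counting noise, and Cox6a2 had as few as 11 reads in them.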

How the results depend on the processing

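Most calls kept their side of the threshold, since 4462 of the single-gene values under alternatives were as in the main fit, 421 lost their call and 4 changed sign. A call was counted as held if it passed under each of the 25 alternatives that tested the gene. The filter at 5 CPM dropped some low genes, Cox4i2 among them, so these were tested in fewer. Held calls were 45 of 69 and 42 of 63 for differentiation in the msx2 and GFP lines, 5 of 14 for msx2 induction (Ndufb10, Sdha, Sdhd, Cox8a and Cox4i2), 3 of 5 for the difference of inductions, 0 of 5 for the difference of differentiations, 11 of 21 between the lines in induced myotubes and 1 of 19 in myoblasts. The sign changes were in differentiation, for Atp5f1 (0.03 with upper-quartile scaling, 0.02 with 5 CPM in 3 libraries) and Atp5l (0.01 with upper-quartile scaling) in the msx2 line and Sdhc (0.01 with 5 CPM in 3 libraries) in the GFP line. The cause was not tested.

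Counts of passing genes moved as follows, and the shares of all genes under the same settings are not given here. For msx2 induction (14) the count was 30 with the replicate block and GC offset and 8 with the compared groups only. For the difference of inductions (5) it was 9 with the replicate block, 15 with block and GC offset, 9 with block and length offset and 3 with the compared groups only. For the difference of differentiations (5) it was 3 with upper-quartile scaling, 16 with the replicate block, 15 with block and GC, 23 with block and length, 0 with the compared groups only and 12 by DESeq2. Between the lines it was 33 with block and GC in induced myotubes (21), and 10 with upper-quartile scaling, 31 with the replicate block, 32 with block and length and 35 with the compared groups only in myoblasts (19). In comparisons with myoblasts the libraries share only a number, and the block gave 69 and 67 genes for differentiation in the msx2 (69) and GFP (63) lines. Leaving out 1 library gave 9 to 18 genes for msx2 induction, 0 to 0 for GFP-line induction, 3 to 8 for the difference of inductions, 64 to 69 and 52 to 64 for differentiation in the msx2 and GFP lines, 0 to 12 for the difference of differentiations, and 14 to 21, 0 to 0 and 1 to 23 between the lines in induced myotubes, uninduced myotubes and myoblasts. The lowest counts for msx2 induction, for the difference of differentiations and for myoblasts came without msx2-line induced replicate 1 and, in the last 2, without msx2-line myoblast replicate 1, with 0 for the difference of differentiations also without GFP-line myoblast replicate 2. Depth limits Cox4i2, Cox7a1, Cox7b2, Cox6b2 and Ndufaf3, which had few reads. It also limits Cox6a2 and Cox8b in GFP-line myoblasts, where their lowest counts were 11 and 7 reads in a library. The size of their GFP-line differentiation changes rests on those low counts.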
